A study of Mus musculus with 94 samples.

Results

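Tubular segments of entospletinib-treated kidneys were compared between day 14 and day 1 after renal ischemia-reperfusion injury (IRI), separately in cortex and medulla. The segments were those stained for pan-cytokeratin (PanCK), a marker of epithelial cells, and a segment was kept if it held at least 200000 counts. This rule gave 14 of the 94 segments of the series, out of 48 tubular segments in all. On day 14 there were 4 segments in the cortex and 4 in the medulla. On day 1 there were 4 in the cortex and 2 in the medulla. The 2 shallow cortical segments were left out, 1 from day 1 with 125254 counts and 1 from day 14 with 77621. In both cases another segment of the same region number was kept, with 2688479 and 4136936 counts, and the former was the shallowest segment kept.

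The study profiled formalin-fixed kidney sections of male C57BL/6 mice with the GeoMx Digital Spatial Profiler, which releases probe barcodes from a marked area of tissue with UV light and counts them by sequencing. The left renal pedicle was clamped and released, and kidneys were taken on days 1, 7, and 14. Mice received entospletinib, an inhibitor of spleen tyrosine kinase (SYK), or vehicle (DMSO) before the injury, at an interval on which the labels and the methods differ, and uninjured kidneys, contralateral ones according to the labels, served as controls. Each of the 7 groups (CTRL, IRI_D1, IRI_D7, IRI_D14, IRI_D1_E, IRI_D7_E, and IRI_D14_E) had 2 sections, told apart by the prefixes E1 and E2. The day 1 entospletinib mice had a single injection before the injury. The day 14 mice had that injection and repeated ones afterward, so that time after injury and the number of doses cannot be told apart in the comparison of day 14 with day 1. The labels do not state whether a section stands for 1 mouse, and p values measure the spread between these sections.

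SYK passes signals from Fc receptors, integrins, and other receptors and is found mainly in leukocytes. IRI deprives tubular cells of oxygen, and the cells of the outer medulla are known to be the most vulnerable. Injured tubular cells lose transport functions, turn on injury and cell cycle genes, and in the weeks afterward either regain their mature state or remain altered while leukocytes and fibroblasts build up around them. Tubular recovery is therefore commonly read from the return of early injury transcripts to their baseline and the return of transcripts of the mature epithelium.

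Counts were summed over the segments of a section within a region, so that each group had 2 values per region (n = 2). The entospletinib sums of days 1 and 14 held 6489483 to 14254882 counts. All 20175 probes passed the filter on low counts in both regions. The files list probes by identifier without gene names, so probes are described by their values, and neither the tubular identity of the segments nor the presence of other cells could be checked against marker genes. The spread between the sections of a group differed between groups. The median probe differed between sections by 0.17 (log2 CPM) on day 1 and by 0.36 on day 14 in the cortex, and by 0.32 and 0.18 in the medulla. CPM is a probe's count per 1e6 counts of a sum, after the total was multiplied by the sum's upper quartile factor. For single segments and for macrophage segments, CPM used the unadjusted total. The ratio of the 95th to the 5th percentile of CPM, a measure of how far high probes stood above low ones, was 10.6 to 15.3 in the 4 sums of day 1 and 10.7 to 18.2 in the 4 sums of day 14, so the groups overlapped. By the unadjusted total, the median probe stood at 18.8 to 27.6 CPM on day 1 and at 19.6 to 26.3 CPM on day 14. The 5th percentile was 8.72 to 11.5 CPM and 7.80 to 11.5 CPM. The counts were not background-corrected, and how much of such low levels was background was not tested.

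In the cortex, the probes that passed edgeR's test between day 1 and day 14 with entospletinib were few, and all of them fell. Of 20175 probes, 7 were called lower and 0 higher on day 14 (0.0347% called; edgeR's quasi-likelihood test, adjusted p under 0.05 and a change of more than 2-fold). At an unadjusted p under 0.05 there were 519 lower (2.57%) and 581 higher (2.88%), and DESeq2 on the same sums called 45 lower and 29 higher. The median change over all probes was 0.0065 (log2). The 7 probes fell by 2.55- to 5.14-fold (median 3.87-fold), with standard errors of 0.17 to 0.32 on the log2 scale. Their mean level over the 14 cortical sums was 20.6 to 129.7 CPM, and their median percentile among all probes by that level was 89.0. In each of them the lower day 1 section lay 2.38- to 4.09-fold above the higher day 14 section. Of all probes 11.8% had both day 1 sections above both of day 14, and 12.4% the reverse. In bulk segments such as these, fewer cells of a type and less RNA per cell cannot be told apart. The cortical calls rested on single sections, as leaving out 1 section changed their number. For the 2 probes called in both regions, 16 alternative cortical fits were made, those without 1 section among them. Their changes were -2.63 to -1.99 (RTS0070030) and -2.61 to -2.07 (RTS0078750) over these fits. Each of the 2 probes missed an adjusted p under 0.05 in 3 of the 16. The direction of the calls depended on the fit, with 79 lower and 106 higher when only the groups of the contrast were fitted and 86 lower and 133 higher with segments as replicates in DESeq2.

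In the medulla, 16 probes were called lower (0.0793%) and 4 higher (0.0198%) on day 14, or 0.0991% in all. At an unadjusted p under 0.05 there were 719 lower (3.56%) and 753 higher (3.73%), and DESeq2 called 159 lower and 52 higher. The median change over all probes was 0.08 (log2). The 16 probes fell by 2.40- to 21.8-fold (median 4.56-fold), and the 4 rose by 2.73- to 3.90-fold (median 3.30-fold). The gap between the nearest sections of day 1 and day 14 was 1.70- to 16.3-fold for the probes that fell and 2.24- to 3.40-fold for those that rose. Of all probes 12.3% had both day 1 sections above both of day 14, and 18.5% the reverse. These calls also rested on single sections, as leaving out E1 or E2 of day 14 left 2 and 1 calls, all higher, leaving out E2 of day 1 left 0, and leaving out E1 of day 1 gave 305. With only the groups of the contrast fitted, 92 were lower and 120 higher. On day 14 each section had 2 medullary regions against 1 on day 1. With the first of them alone 33 probes were called, and with the second alone 12.

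Most of the probes that fell stood above uninjured kidneys on day 1. Both day 1 sections lay above both control sections for 7 of 7 cortical and 15 of 16 medullary probes, against 15% and 11.8% of all probes, and their own day 1 level helped to choose them. On day 14 both sections lay below both controls for 2 of the 7 (6.02% of all probes) and 8 of the 16 (7.83%), and above both for 0 of the 7 (7.85%) and 2 of the 16 (12.8%). These counts are a description. The 2 probes called lower in both regions are named here. RTS0070030 stood at 217 and 240.2 CPM in the cortex on day 1 (sections E1 and E2) and at 36.8 and 57.4 CPM on day 14. In the medulla it stood at 252 and 374 CPM on day 1 and at 33.3 and 39.8 CPM on day 14. Both day 14 sections lay far below both day 1 sections in each region, with no overlap. The log2 fold change was -2.28 ± 0.27 in the cortex (4.84-fold lower, edgeR adjusted p = 0.012) and -3.10 ± 0.39 in the medulla (8.56-fold lower, edgeR adjusted p = 0.0185), where the error is the SE. The control sections had 40.2 and 48.2 CPM in the cortex and 69.0 and 53.3 CPM in the medulla.

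RTS0078750 showed a like course. Its cortical level was 134 and 194 CPM on day 1 and 32.7 and 31.1 CPM on day 14, beside 34.4 and 35.2 CPM in controls. Its medullary level was 128 and 288 CPM on day 1 and 38.4 and 39.8 CPM on day 14, beside 41.6 and 43.2 CPM in controls. The 2 sections of day 1 differed more than 2-fold in the medulla, and the sections of day 14 hardly at all. The probe fell by 2.36 ± 0.27 (log2, SE) in the cortex (5.14-fold, edgeR adjusted p = 0.012) and by 2.41 ± 0.35 in the medulla (5.31-fold, edgeR adjusted p = 0.0185).

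Single segments, in CPM of the unadjusted total, showed the same separation. In the cortex, RTS0070030 lay between 209 and 241 CPM in the 4 segments of day 1 and between 35.7 and 57.9 CPM in the 4 of day 14. RTS0078750 lay between 126 and 194 CPM in the former and between 26.8 and 33.9 CPM in the latter. Segments of a section share a kidney, so these ranges show that neither fall came from 1 segment and are no further replication.

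Of the 4 probes that rose in the medulla, the 2 with the smallest adjusted p are named. RTS0079558 had 31.2 and 23.4 CPM in the medulla on day 1 and 107 and 106 CPM on day 14, a rise of 1.96 ± 0.32 (log2, SE, 3.90-fold, edgeR adjusted p = 0.0325). RTS0071892 had 29.7 and 15.5 CPM on day 1 and 68.1 and 101 CPM on day 14, a rise of 1.90 ± 0.32 (3.74-fold, edgeR adjusted p = 0.038). The groups did not overlap for either probe, and the control sections were at 106 and 55.2 CPM for the first and 56.4 and 40.4 CPM for the second. The day 1 levels lay near the median of all probes in those sums (27.6 and 18.8 CPM by the unadjusted total).

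In the cortex, RTS0079558 was at 33.4 and 38.1 CPM on day 1 and at 91.9 and 83.5 CPM on day 14, a difference of 1.29 ± 0.32 that did not pass the test (edgeR, adjusted p = 0.237). RTS0071892 was at 37.3 and 20.9 CPM and then at 48.2 and 51.7 CPM, a difference of 0.80 ± 0.29 (adjusted p = 0.652). The remaining 2 probes that rose had a log2 fold change of 1.52 and 1.45 in the medulla. In the cortex the former had 1.22 (adjusted p = 0.561) and the latter -0.12 (adjusted p = 1), so the last of the 4 was the only one with opposite signs in the regions.

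**Figure D1:**
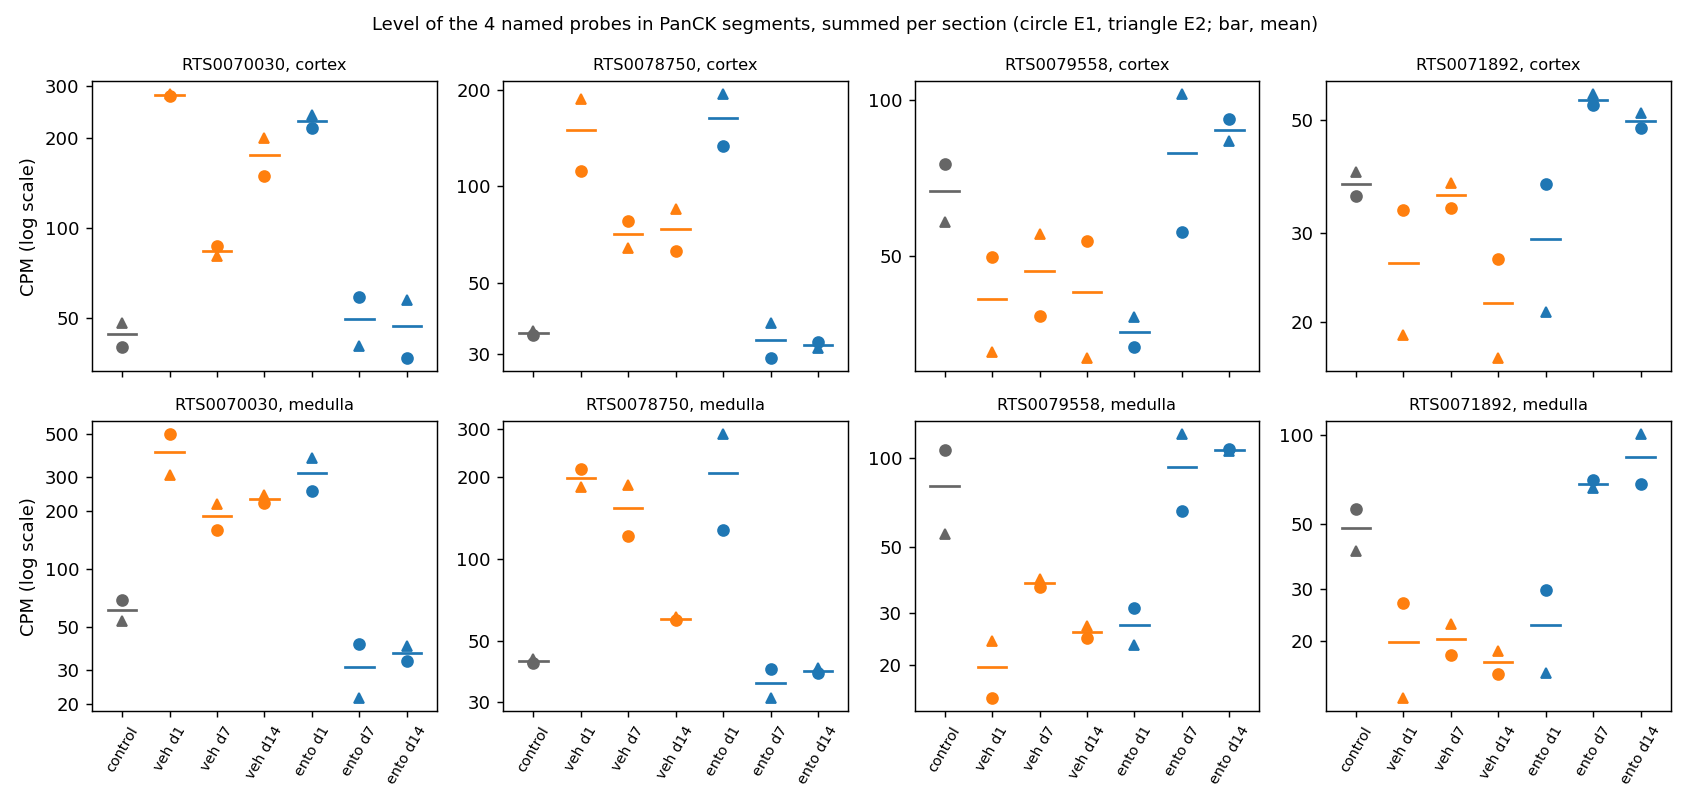
Level of the 4 named probes in tubular segments (CPM, log scale) in the 7 groups, in cortex (top) and medulla (bottom); each point is the sum of a section (circle E1, triangle E2), and bars are group means (n = 2). With entospletinib the 2 probes on the left stood at 128 to 374 CPM in the sums of day 1 and at 31.1 to 57.4 CPM in those of day 14; in the medulla the 2 on the right stood at 15.5 to 31.2 CPM on day 1 and at 68.1 to 107 CPM on day 14.

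The most abundant probe among those called ranked 3rd of 20175 by its mean medullary level. It had 9355 and 15364 CPM in the day 1 sections and 325 and 886 CPM in the day 14 sections, a log2 fold change of -4.35 ± 0.67 (SE, 20.4-fold lower, edgeR adjusted p = 0.0291). The control sections had 1366 and 1836 CPM, so that both day 14 sections lay below both controls. The most strongly lowered of the called probes had 392 and 641 CPM on day 1 and 23.3 and 24.0 CPM on day 14 (21.8-fold lower, edgeR adjusted p = 0.0185), beside 75.3 and 130.1 CPM in controls. Another probe fell from 117 and 268 CPM to 9.84 and 11.0 CPM (18.4-fold lower, edgeR adjusted p = 0.0185), beside 76.6 and 80.2 CPM in controls. Its day 14 level lay near the 5th percentile of those sums (10.9 and 9.03 CPM by the unadjusted total), where background was not removed. In the vehicle day 1 sums the probe lowered 21.8-fold had 24.0 and 69.0 CPM, and that lowered 18.4-fold had 18.7 and 72.1 CPM. Both lay below both controls there, while the most abundant probe had 7087 and 11594 CPM, above both controls. Those vehicle sums were shallow. Relative to controls these 3 probes stood at -2.91 to -1.40 (log2) on day 14 with entospletinib. One more, which had lain near the controls on day 1 (0.07), stood at -1.31. None of these differences from control passed the test, nor did that of any of the 20175 probes in either region (edgeR; 262 probes in the cortex and 279 in the medulla at an unadjusted p under 0.05).

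Levels on day 7 and in controls placed these changes in time. The 7 cortical probes had changed by -2.30 to -1.24 (log2) from day 1 to day 7 and by -0.47 to 0.02 from day 7 to day 14. The 16 medullary probes that fell had changed by -4.89 to -1.25 and then by -0.51 to 0.54. The 4 that rose had changed by 0.57 to 1.77 and then by -0.08 to 0.88. The probe with the smallest first step and largest second step was the one whose signs differed between regions. Relative to controls, the cortical probes were at 1.13 to 2.36 on day 1 and at -0.22 to 0.09 on day 14. The medullary probes that fell had a median of 2.04 on day 1 and -0.23 on day 14, and those that rose had -1.11 and 0.61. These comparisons share the day 1 or the day 14 sections with the one that chose the probes, so the values are given side by side and carry no further test.

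**Figure D2:**
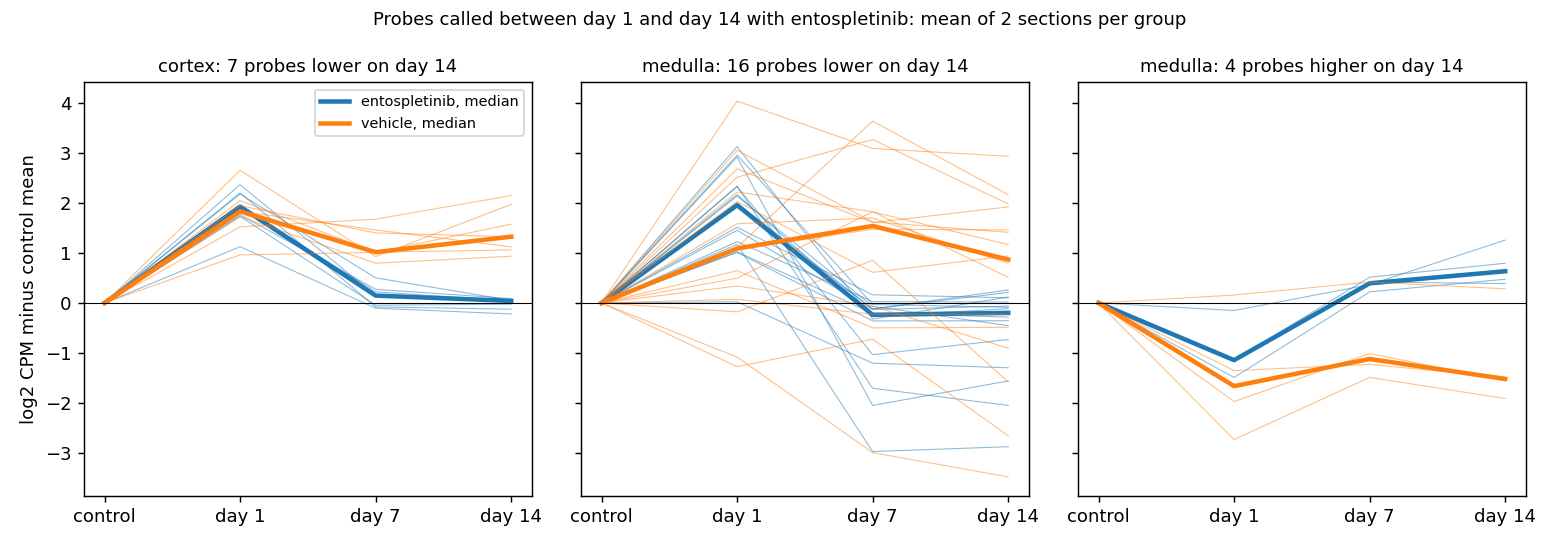
Course of the probes called between day 1 and day 14 with entospletinib, as log2 CPM minus the control mean, for 7 cortical probes that fell, 16 medullary probes that fell, and 4 medullary probes that rose; thin lines are probes (mean of 2 sections), thick lines medians, blue entospletinib and orange vehicle. The blue medians of the probes that fell are close to the control line by day 7, and the orange medians stay above it to day 14 in both groups that fell.

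Probes called in one region had estimates of the same sign in the other, apart from 1 that rose in the medulla. All 7 cortical probes had a negative log2 fold change in the medulla (-4.00 to -1.32), against 34.5% of all probes. All 7 had an unadjusted p under 0.05 there, against 3.56% of all probes lower at that threshold, and 2 were called. Of the 16 medullary probes that fell, all had a negative change in the cortex (-3.66 to -0.39), against 48.3% of all probes. Of these, 14 had an unadjusted p under 0.05, against 2.57% of all probes, and 2 were called. Over all probes the changes in the 2 regions were correlated as well (Pearson r = 0.66). Together 25 probes were called in either region, and the 2 shared ones were 28.6% of the cortical and 10% of the medullary calls. Cortex and medulla come from the same kidneys and are not independent of each other.

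Whether the change differed between medulla and cortex was tested within sections. By edgeR 0 of 20175 probes passed (0% called), while 503 had an unadjusted p under 0.05 and 2 passed in DESeq2. The named probe with the largest difference was RTS0071892, whose change was higher in the medulla by 1.12 ± 0.26 (log2, SE, edgeR adjusted p = 0.803). For RTS0078750 the difference was 0.04 ± 0.36 (edgeR, adjusted p = 1). A p that misses the threshold does not show that the regions acted alike, and the test used only 2 sections per group.

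**Figure D3:**
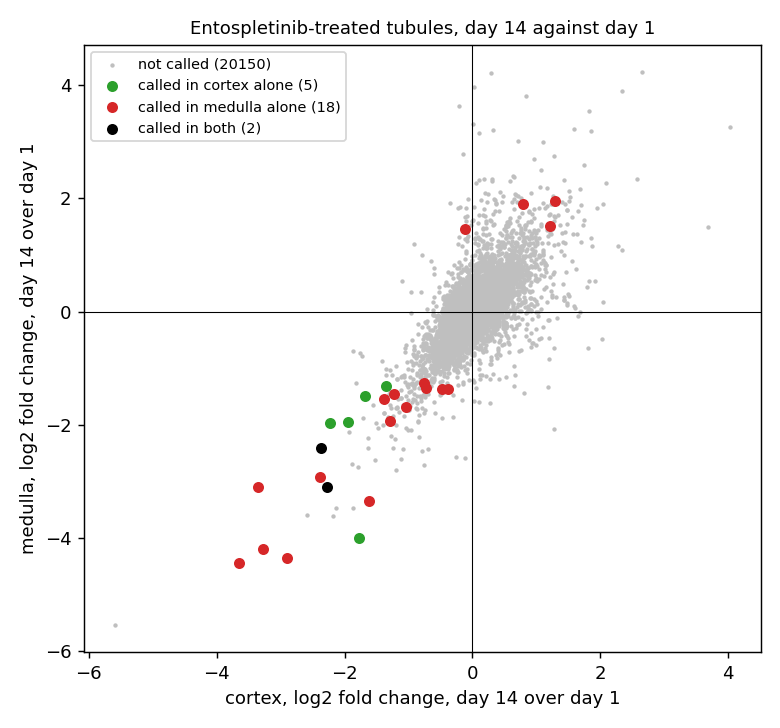
Log2 fold change from day 1 to day 14 with entospletinib for all 20175 probes, cortex (horizontal) against medulla (vertical); 2 probes called in both regions are black, 5 called in the cortex alone green, and 18 called in the medulla alone red. Every called probe that fell lies in the lower left quadrant, and many probes with larger changes are not called.

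Size alone did not decide a call. In the cortex 150 probes had a rise of more than 2-fold without being called, and in the medulla 326, with 86 and 224 falls of that size also not called. The largest cortical rise was from 32.5 and 90.0 CPM to 929.8 and 1052 CPM (4.02 ± 0.76 log2, SE, edgeR adjusted p = 0.106). The largest medullary rise, from 19.0 and 72.9 CPM to 21.0 and 1709 CPM, came from 1 section of day 14 (4.23 ± 2.37, edgeR adjusted p = 0.942). The largest fall among them was cortical, from 295 and 1216 CPM to 13.6 and 17.7 CPM (-5.59 ± 1.00, edgeR adjusted p = 0.0922), and its sections did not overlap. Its day 14 levels lay below the median of all probes in those sums (26.3 and 19.6 CPM by the unadjusted total).

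The vehicle groups give the same interval without the drug, in other sections. Their medullary day 1 sums were shallow, with 1863750 and 1235205 counts from 1 segment each. The entospletinib sums of that day and region held 10109432 and 11699181 counts. Medullary changes with vehicle, and differences from them, rest on these shallow sums. Between day 1 and day 14 with vehicle, 206 probes rose and 20 fell in the cortex (1.12% called), and 283 rose and 282 fell in the medulla (2.8% called). With upper quartile scaling the median of all probes was -0.25 and -0.31 there. With TMM scaling it was -0.05 and -0.03, and the calls were 518 higher and 11 lower in the cortex and 628 higher and 95 lower in the medulla. Vehicle changes are therefore best read beside the median of all probes.

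The cortical probes that fell with entospletinib had a log2 change of -1.02 to 0.65 with vehicle (median -0.67), and 0 of 7 were called lower (0.0991% of all probes were). Of the 16 that fell in the medulla, 5 were also called lower with vehicle (1.4% of all probes were), and the range was -2.79 to 1.05 (median -1.11). The 4 that rose in the medulla changed by -0.26 to 0.82 with vehicle, and 0 were called higher (1.4% of all probes were). RTS0078750 fell with vehicle as well in the medulla, from 215 and 184 CPM to 59.9 and 61.3 CPM (-1.72 ± 0.34 log2, SE, edgeR adjusted p = 0.0146). RTS0070030 went from 499 and 307 CPM to 220.4 and 242 CPM there (-0.80 ± 0.36, edgeR adjusted p = 0.187). RTS0079558 stayed between 15.4 and 27.1 CPM in all 4 vehicle sums of days 1 and 14 in the medulla, and RTS0071892 between 12.7 and 26.8 CPM.

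The difference between the change with entospletinib and the change with vehicle was tested for every probe. It passed for 27 probes in the cortex (0.134% called), of which 25 were lower (0.124%) and 2 higher (0.00991%) with entospletinib. In the medulla it passed for 87 (0.431% called), of which 73 were lower (0.362%) and 14 higher (0.0694%). With TMM scaling 114 of 121 and 321 of 342 were lower. Of the probes named here none passed. The smallest adjusted p values were 0.0767 for RTS0071892 and 0.0799 for RTS0070030, both in the medulla (edgeR, differences of 2.16 ± 0.49 and -2.29 ± 0.52 log2, SE). Of the called probes 2 of 7 in the cortex and 3 of 16 in the medulla were among those that were lower. Their own fall chose them, so these counts are a description. Those 5 had estimates of 0.39 to 1.05 with vehicle, none of them called.

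Of the 25 probes in the cortex that were lower with entospletinib by this test, 18 were called higher with vehicle (1.02% of all probes were) and 0 with entospletinib. They had a median change of 1.46 (log2) with vehicle and -0.51 with entospletinib. Their median level relative to controls was 0.47 on day 1 and 2.03 on day 14 with vehicle, and 0.58 and 0.12 with entospletinib. In the medulla 65 of the 73 lower probes were called higher with vehicle (1.4% of all probes were) and 0 with entospletinib. They had a median change of 2.30 with vehicle and -0.05 with entospletinib, and levels of 0.26 and 2.44 against 0.06 and 0.11. The 14 higher probes had fallen with vehicle by a median of 2.19, from 1.80 above controls to -0.39, and stood at 0.21 and 0.13 with entospletinib. These medians describe the pattern that the test selected. The counts rested on single sections. In the cortex 0 and 4 probes passed without E1 and E2 of entospletinib on day 14, 71 and 3 without those of day 1, 4353 without E1 of vehicle on day 14 (950 lower and 3403 higher, so that most were then higher with entospletinib), and 1 and 0 without E1 and E2 of vehicle on day 1. In the medulla 0 and 2 passed without E1 and E2 of entospletinib on day 14, 48 without E2 of vehicle on day 14, 23 without E1 of vehicle on day 1 (3 lower and 20 higher), and 45 without its E2.

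Lists defined by the change with vehicle allow the entospletinib change to be read on probes that its size did not choose. The vehicle change was tested in the fit of all 7 groups, so entospletinib sections helped to set the spread behind these calls. The 206 probes that rose with vehicle in the cortex had a median change of -0.0014 with entospletinib, beside 0.0065 for all probes, and 0 were called. At an unadjusted p under 0.05, 3 were higher (1.46%, against 2.88% of all probes) and 9 lower (4.37%, against 2.57%). In the medulla the 283 probes that rose with vehicle had a median of 0.20 with entospletinib, beside 0.08 for all probes. None was called, and 45 were higher (15.9%, against 3.73% of all probes) at an unadjusted p under 0.05.

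For the probes that fell with vehicle, more were lower with entospletinib than higher. Of the 20 in the cortex, 12 (60%) were lower with entospletinib at an unadjusted p under 0.05, against 2.57% of all probes, and 1 was higher, with a median of -0.67 and 0 called. Of the 282 in the medulla, 5 were called lower (0.0793% of all probes were) and 53 (18.8%, against 3.56%) were lower and 1 higher at an unadjusted p under 0.05. Their median was -0.06, beside 0.08 for all probes.

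**Figure D4:**
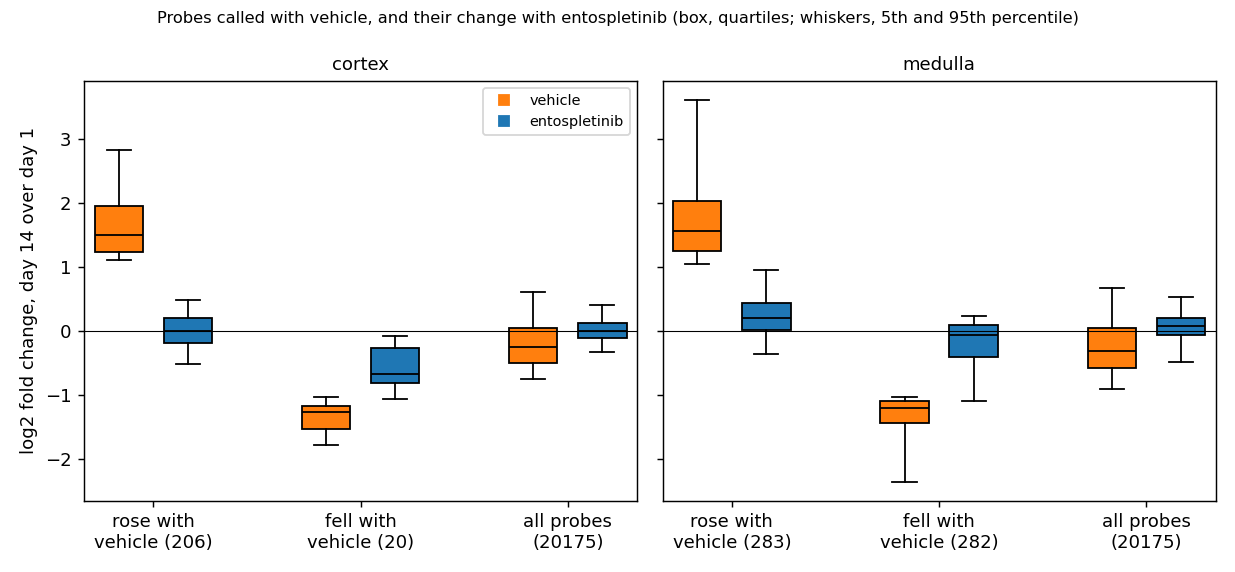
Log2 fold change from day 1 to day 14 with vehicle (orange) and with entospletinib (blue) for probes called higher or lower with vehicle and for all probes, in cortex and medulla; boxes are quartiles and whiskers the 5th and 95th percentiles over probes. The orange boxes of the first groups are set by the choice of the probes; the blue medians of the probes that rose are -0.0014 in the cortex and 0.20 in the medulla.

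Probes were next grouped by the compartment and region in which they were higher in the 8 control and vehicle sections, in which no entospletinib section took part. Tubule-leaning probes, those higher in tubular than in macrophage (IBA1-stained) segments, numbered 252. They stood below the control mean on day 1 with entospletinib and near or above it on day 14. In the cortex the median of the list relative to controls was -0.35 and -0.68 (log2) in the day 1 sections and -0.08 and 0.25 in the day 14 sections. In the medulla the day 1 sections had -0.35 and -0.58, and those of day 14 had -0.08 and 0.39. The control sections themselves had 0.27 and -0.27 in the cortex and 0.18 and -0.18 in the medulla. They helped to define the list, so their level was not independent of that choice. The sections of day 1 and day 14 did not overlap in either region.

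The median change of the tubule-leaning probes was 0.62 in the cortex and 0.65 in the medulla, against 0.0065 and 0.08 for all probes. At an unadjusted p under 0.05, 81 (32.1%) were higher in the cortex and 75 (29.8%) in the medulla, against 2.88% and 3.73% of all probes. None of the 252 was called higher by edgeR in either region. In the cortex 1 was called lower (0.0347% of all probes were), and in the medulla 3 were (0.0793% of all probes). They took 9.45% and 7.77% of the cortical counts on day 1 and 11.5% and 15.1% on day 14, and 8.62% and 8.52% and then 14.9% and 18.2% of the medullary counts. With vehicle the median change was -0.26 in the cortex and 0.32 in the medulla, beside -0.25 and -0.31 for all probes. Relative to controls the vehicle medians were -0.47 and -2.26 on day 1 and -0.79 and -1.90 on day 14. Vehicle sections also took part in defining the list. Defined by the control sections alone, the list held 80 probes with median entospletinib changes of 0.46 and 0.24. Of these, 20 (25%) were higher and 0 lower in the cortex at an unadjusted p under 0.05, against 2.88% of all probes higher. In the medulla 14 (17.5%) were higher, against 3.73%, and 2 (2.5%) lower. They took 1.91% and 1.12% of the cortical counts on day 1 and 2.80% and 2.65% on day 14. Their medullary share was 1.15% and 0.80% and then 1.15% and 1.28%, so section E1 hardly changed.

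Cortex-leaning probes, higher in cortical than in medullary tubules, numbered 141 and showed a like course in the cortex. There their median relative to controls was -0.40 and -1.01 in the day 1 sections and 0.02 and 0.14 in the day 14 sections, a median change of 0.70. The control sections, which also took part in defining this list, had 0.29 and -0.29 there. Of the 141 probes 50 (35.5%, against 2.88% of all probes) were higher and 0 lower at an unadjusted p under 0.05, and 0 were called by edgeR. In the medulla the sections overlapped, at -0.41 and -0.64 on day 1 and -0.58 and -0.21 on day 14. The median change there was 0.16, with 1 probe called higher (0.0198% of all probes were). With vehicle the cortical median change was -0.14 with 0 called. The 27 medulla-leaning probes had medians of -0.21 in the cortex and -0.26 in the medulla, with 0 called by edgeR. Control sections alone gave 0 probes for either of these regional lists.

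Macrophage-leaning probes, 431 in number, had a median change near that of all probes in the tubular segments with entospletinib. Their median change was 0.0049 in the cortex and 0.03 in the medulla (-0.0082 and -0.07 with TMM scaling), with 0 called by edgeR in either region. At an unadjusted p under 0.05, 7 were higher (1.62%, against 2.88% of all probes) and 12 lower (2.78%, against 2.57%) in the cortex. In the medulla 21 were higher (4.87%, against 3.73%) and 21 lower (4.87%, against 3.56%). They took 1.15% and 1.42% of the cortical counts on day 1 and 1.14% and 1.18% on day 14, and 1.29% and 1.33% and then 1.13% and 1.03% of the medullary counts. With vehicle 105 of them rose in the cortex (1.02% of all probes did) and 65 in the medulla (1.4%), with 13 falling there, but the vehicle sections also took part in defining the list. Defined by the control sections alone, the list held 226 probes with median entospletinib changes of 0.003 and -0.03. In the cortex 0 of them were called by edgeR. There 8 were higher (3.54%, against 2.88% of all probes) and 17 lower (7.52%, against 2.57%) at an unadjusted p under 0.05. In the medulla 1 was called lower (0.0793% of all probes were), and 13 were higher (5.75%, against 3.73%) and 25 lower (11.1%, against 3.56%). None of the 25 called probes was on the list of 431, which held 2.14% of all probes. Those on the tubule-leaning list, which held 1.25% of all probes, were 1 of 7 in the cortex and 3 of 16 falling in the medulla.

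**Figure D5:**
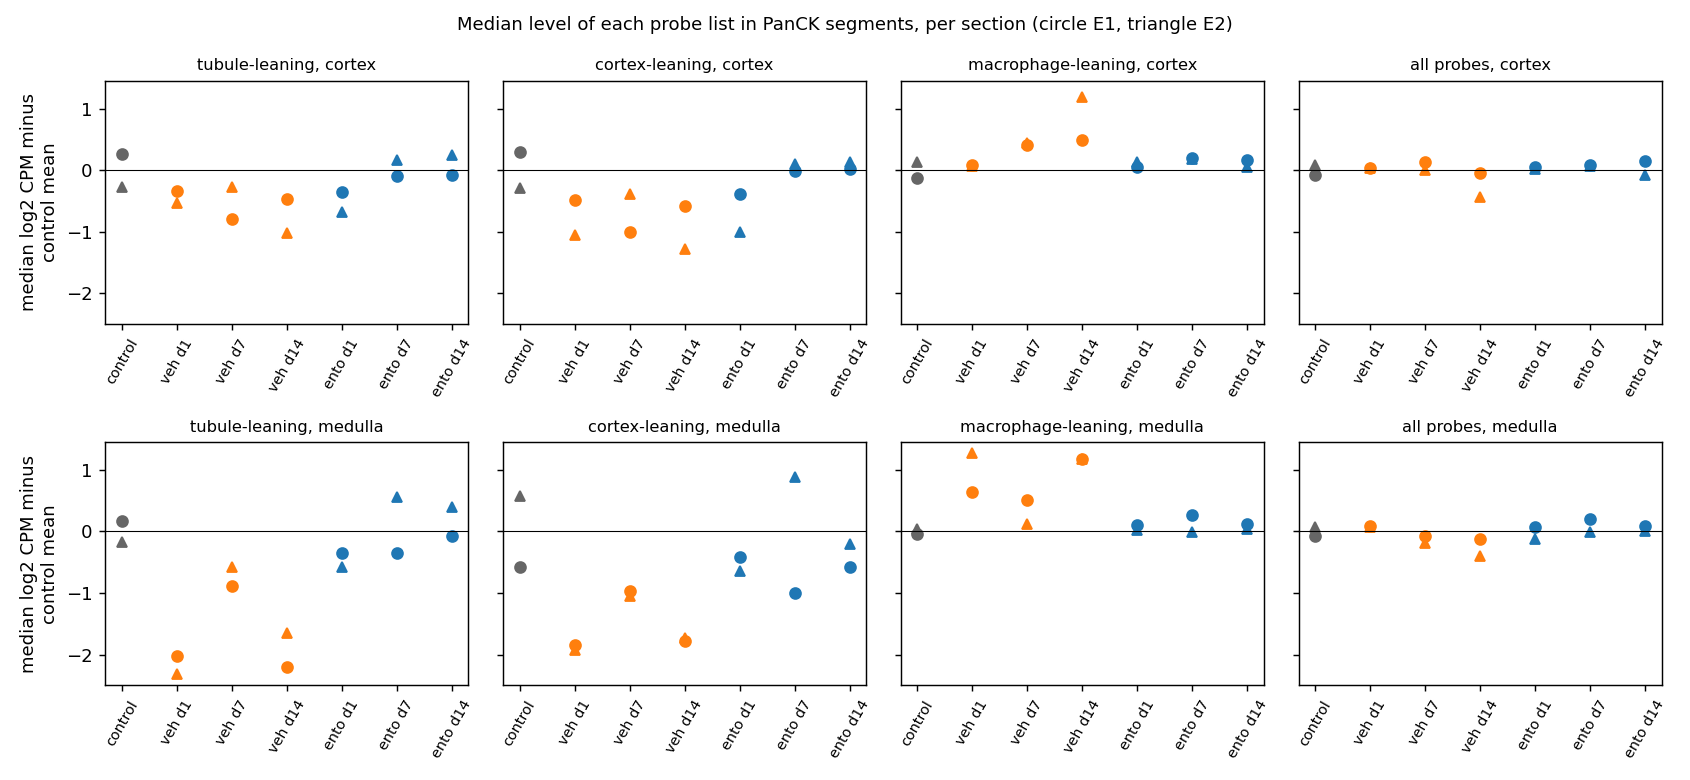
Median level of tubule-leaning, cortex-leaning and macrophage-leaning probes and of all probes, as log2 CPM minus the control mean, in cortex (top) and medulla (bottom); each point is a section (circle E1, triangle E2) and groups are on the horizontal axis. The tubule-leaning medians with entospletinib in the cortex go from -0.35 and -0.68 (day 1) to -0.08 and 0.25 (day 14), while the macrophage-leaning medians lie between 0.02 and 0.16 on both days in both regions.

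The macrophage segments of the same regions were far shallower, with 165796 to 372276 counts per sum, and their values were not tested. There the 7 cortical probes changed by -2.30 to -0.11 (log2) from day 1 to day 14 with entospletinib, the 16 medullary probes that fell by -3.55 to -0.14, and the 4 that rose by 0.71 to 1.08. The median of all probes was -0.03 and 0.03. RTS0070030 had 334 and 218 CPM in cortical macrophage segments on day 1 and 96.5 and 110.1 CPM on day 14. The probes called in tubular segments thus had estimates of the same sign in the neighboring compartment, some of them from few counts. RTS0079558 in the medulla had 1 and 6 counts on day 1 and 19 and 6 on day 14. Its section E2 went from 32.5 to 26.3 CPM, so the days overlapped. The share of all probes with these signs was not determined. How much of the signal of either compartment came from the other was not tested.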

How the data were processed

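The authors deposited counts of unique barcodes per probe and segment, made with the GeoMx NGS Pipeline according to the protocol, and neither normalized nor background-corrected. The submitters' processing notes name mm10 and R 4.3.1. The files pair no probe with a gene name. Groups, sections, and regions were read from the labels. The members and lists were chosen with earlier results of these data known. Counts were summed over segments of a section and region. The 14 sums of each region were filtered with filterByExpr (minimum count 10), given upper quartile factors, and entered into edgeR (version 4.0.16, robust quasi-likelihood test, R 4.3.3) with Benjamini-Hochberg adjustment. SEs were the log2 fold change over the square root of F. A probe was called if its change exceeded 1 on the log2 scale in either direction with an adjusted p below 0.05, and a difference of changes on the adjusted p alone. Medulla and cortex were compared in 1 fit of 28 sums with the section as a block. Levels relative to controls used log2 CPM with a prior count of 2.

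Named probes were, per direction, the 2 called in both regions with the smallest larger adjusted p, completed by those with the smallest adjusted p in the medulla. Lists used the same thresholds with the section as a block. No 2 segments held identical counts. The test was checked on simulated data, drawn independently and with the same spread in every group. The real groups differed in spread, and the check does not cover that case. Alternatives included TMM, DESeq2 (version 1.42.0), and limma (version 3.58.1), and a fit with the prefix as a block. The study treated segments as replicates in DESeq2, which was an alternative here. The 2 shallow tubular segments were left out.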

Additional observations from a re-analysis of the deposited data

Results flagged for a closer look

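The change from day 1 to day 14 differed between entospletinib and vehicle, by edgeR's test of the difference itself, for 27 probes in the cortex and 87 in the medulla. Both counts compare 2 sections per group. No segment stood apart from the others in its group for the 4 named probes, in 12 groups of 4 segments checked. The 2 medullary segments of day 1 were too few for this check and were left out of it.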

How the results depend on the processing

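Counts of calls depended strongly on the processing, and the cause was not tested. The 7 cortical and 20 medullary calls between day 1 and day 14 became 74 and 211 with DESeq2 on the same sums, 41 and 88 with the prefix as a replicate block, 219 and 360 with segments as replicates in DESeq2, 109 (58 lower, 51 higher) and 59 with segments as replicates in limma-voom, 11 and 53 with sums thinned to the lowest total, 185 and 212 with only the groups of the contrast fitted, and 17 and 63 with quantile normalization and limma, an alternative chosen after seeing the data. With the first or second medullary region of day 14 alone, the medullary count was 33 or 12. The difference from vehicle (27 and 87 probes) became 121 and 342 with TMM, 520 and 773 with DESeq2, 7 and 2 among probes above the median level, 124 and 124 with the replicate block, 3274 and 1227 with segments in DESeq2, 315 and 31 in limma-voom, 0 and 188 with only the groups of the contrast, and 50 and 215 with quantile normalization. Thinning segments within a section gave 51 in the medulla, and the first region alone 24. The difference between regions (0 probes) became 2 with DESeq2, 12 and 19 with segments as replicates in DESeq2 and limma-voom, 226 with only the groups of the contrast, and 1 with the second region. Leaving out 1 section gave 0 to 10 cortical and 0 to 305 medullary calls, 0 to 4353 and 0 to 119 differences from vehicle, and 0 to 5 differences between regions. The group then left with 1 sum is assumed to vary like the others. Same-numbered sections of entospletinib days 14 and 1 deviated together (correlation 0.40 in the cortex and 0.39 in the medulla), but over all 21 pairs of groups the correlation was -0.52 to 0.65 and -0.51 to 0.62, above 0.1 in 15 and 11, and the labels do not say what a shared prefix means, so the block was kept as an alternative. None of 136 alternative values of the named probes changed sign, but the probes were chosen for their change in these same sums, so this is a description. Judged by an adjusted p under 0.05 alone, without the limit on the change, 20 of them lost and 7 gained the threshold. With 2 sections per group, a change has to be large beside a median SE of 0.23 (log2) in the cortex to be called.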
